A study of Homo sapiens with 12 samples.

Results

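Of the 43481 genes with a transcript in these tables, 48 are protein-coding genes of GENCODE 29 whose symbol begins with NDUF, the name given to the nuclear genes of respiratory complex I. The rule used the symbol alone and no measured value, but it was chosen with earlier results of these data known. The 48 comprise 37 nuclear subunits of the enzyme, of which 7 are core and 30 supernumerary, and 8 assembly factors whose symbols begin with NDUFAF. The remaining 3 share only the symbol: NDUFA4 is now placed in complex IV, NDUFA4L2 is its relative, and NDUFC2-KCTD14 is a readthrough of NDUFC2 into its neighbour. After the filter on low counts 47 of the 48 were tested, and NDUFC2-KCTD14 was not, with a mean of 0.73 TPM (a length-corrected share of the transcripts in a library) over the 12 libraries.

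Complex I takes electrons from NADH, passes them through a flavin and a chain of iron-sulfur clusters to ubiquinone, and pumps protons across the inner mitochondrial membrane. Its core subunits carry the redox centres and the proton channels and are divided between the nuclear and the mitochondrial genome, while the supernumerary subunits surround and stabilise that core. Assembly factors insert cofactors, modify subunits and join the modules, and are absent from the finished enzyme. The retinal pigment epithelium is known for its heavy use of mitochondrial respiration.

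The cells were RPE-1, an established human line from retinal pigment epithelium, and every one of the 4 groups, with 3 libraries each, shares a fast of 24 h from serum and sugar. The starved group ended there. In the others a stimulus of 4 h followed, with 10% fetal calf serum and glucose at 5 g/l, given beside the solvent DMSO (the solvent group), 100 µM dimethyl amiloride (the DMA group) or 10 µM C646 (the C646 group). DMA is an inhibitor of sodium-proton exchangers and C646 of the acetyltransferases p300 and CBP, and the series asks how cell cycle entry depends on pH. The 6 pairwise comparisons share libraries, since each group enters 3 of them.

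The libraries held 14910516 to 28968510 expected counts. Nothing in the labels says that libraries of a group came from separate cultures, so the p-values measure only the spread between these libraries. Of the markers of the labelled cell type, RPE65, RLBP1, TTR and TYR had a median of at most 0.017 TPM. BEST1, PMEL and MERTK had medians of 0.68, 0.77 and 2.32 TPM, whereas MITF reached a median of 11.9 TPM and OTX2 8.66 TPM. KRT18, of simple epithelia in general, had a median of 569.6 TPM, and the mesenchymal markers VIM, THY1 and COL1A1 had 4125, 144.9 and 1.79 TPM. Mean THY1 was 81.3 TPM in starved cells and 161.4, 179.6 and 173.6 TPM with solvent, DMA and C646, and mean MITF was 19.7 TPM against 9.93, 10.00 and 10.6 TPM. Mean MERTK was 8.3 TPM in starved cells against 1.7, 2.0 and 2.9 TPM. The part of such marker differences in the results was not tested. The markers of leukocytes, endothelium and neurons reached at most 1.23 TPM in any library. In RNA from a whole culture, a smaller number of cells and less RNA per cell cannot be told apart.

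Together the NDUF genes took 0.433% to 0.463% of all TPM in the starved libraries and 0.504% to 0.562% in the 9 others. The most abundant member was NDUFA4 (mean of 267.9 TPM over the 12 libraries), followed by the supernumerary subunits NDUFS5 (265.7 TPM), NDUFB8 (243.1 TPM) and NDUFA11 (230.0 TPM). Among the core subunits the level ran from 148.5 TPM for NDUFS8, which binds iron-sulfur clusters next to the ubiquinone site, to 29.9 TPM for NDUFS7, which holds the last cluster of the chain. NDUFS1, the largest nuclear core subunit, stood at 40.1 TPM. Assembly factors lay mostly low in this order, from 11.2 TPM for the methyltransferase NDUFAF7 to 131.9 TPM for NDUFAF8, a partner of the hydroxylase NDUFAF5 (19.7 TPM). NDUFA4L2 was lowest of the tested genes at 2.9 TPM.

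**Figure D1:**
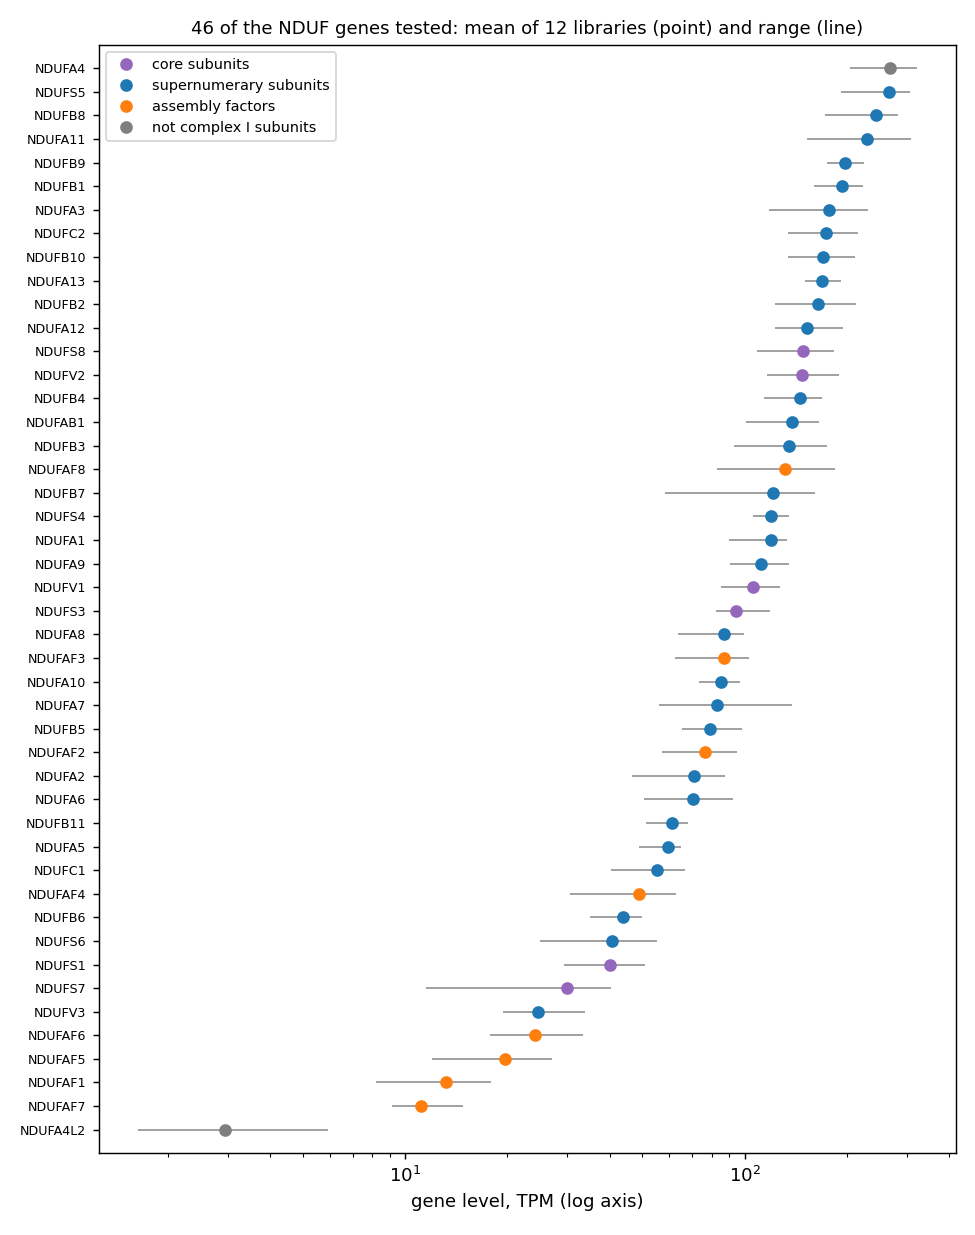
Level of 46 of the 47 tested NDUF genes in TPM on a log axis, as the mean of the 12 libraries (point, coloured by class) with the lowest and highest library (line). NDUFA4 and NDUFS5 lead at 267.9 and 265.7 TPM, and 4 of the 6 lowest genes are assembly factors, down to NDUFAF7 at 11.2 TPM.

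Refeeding went with higher summed levels of the supernumerary subunits and of the assembly factors, and the summed core subunits overlapped between starved and refed libraries. Summed over 30 genes, the supernumerary subunits had 3169, 3211 and 3382 TPM in starved libraries 1, 2 and 3, and 3694, 4084 and 3989 TPM in the solvent libraries. The DMA libraries had 4197, 3890 and 4191 TPM and the C646 libraries 4059, 3832 and 3797 TPM. All 9 refed libraries lay above all 3 starved ones.

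The 8 assembly factors together had 349.1, 326.5 and 342.4 TPM in the starved libraries and 420.5, 456.3 and 443.1 TPM with solvent. They reached 479.2, 413.0 and 442.8 TPM with DMA and 481.9, 418.3 and 381.0 TPM with C646, again without overlap between starved and refed libraries. The 7 core subunits gave 606.5, 634.6 and 596.2 TPM in the starved libraries against 599.6, 673.7 and 686.2 TPM with solvent, 665.4, 634.7 and 694.3 TPM with DMA and 620.6, 657.1 and 629.4 TPM with C646, and here starved and refed libraries overlapped. Divided by the summed assembly factors, the summed subunits were 10.8, 11.8 and 11.6 in the starved libraries and 10.2, 10.4 and 10.6 in the solvent ones, while the DMA ratios of 10.1 to 11.03 and the C646 ratios of 9.71 to 11.6 fell on both sides of the solvent range, none within it.

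**Figure D2:**
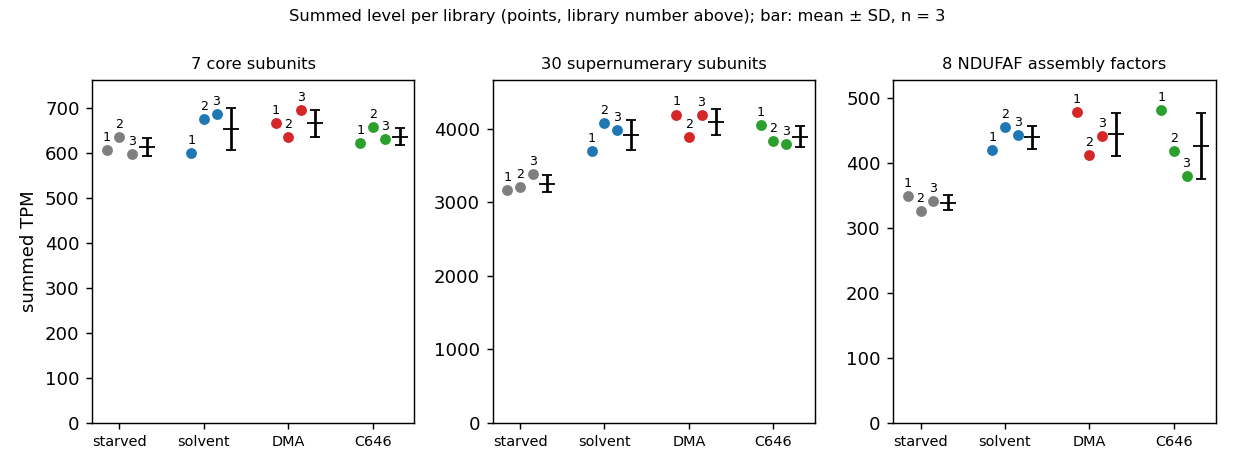
Summed TPM of 7 core subunits, 30 supernumerary subunits and 8 assembly factors in each library (points, with the library number), with the mean ± SD of 3 libraries beside them. Supernumerary subunits run from 3169 to 3382 TPM in starved libraries and from 3694 to 4197 TPM in refed ones, while the core subunits of all 4 groups lie between 596.2 and 694.3 TPM.

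The comparison of solvent with starved cells takes in serum and glucose together with DMSO and the 4 h of further culture, which cannot be told apart. By edgeR's quasi-likelihood test, 8 of the 47 NDUF genes rose and none fell at an adjusted p under 0.05, which is 17.0% of them. Over all 15263 genes tested 24.3% passed in either direction, 12.6% higher and 11.7% lower. The share of NDUF genes called thus lay below that of all genes in either direction and near that of all genes called higher, and is not read as a result about them. The 8 were the supernumerary subunits NDUFS5, NDUFA8, NDUFA12, NDUFB3 and NDUFA6 and the assembly factors NDUFAF4, NDUFAF8 and NDUFAF1. The median log2 change was 0.26 over the subunits and 0.40 over the assembly factors, beside 0.003 over all genes. Libraries of the 2 groups did not overlap for 15 members that were higher with solvent (31.9%, against 20.5% of all genes). They did not for 1 that was lower, NDUFAF7 (2.13%, against 19.5%).

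Within the subunits the 30 supernumerary ones had a median log2 change of 0.30 and held all 5 calls, and the 7 core subunits had a median of 0.01 with 0 calls. Supernumerary subunits of the peripheral arm, which faces the matrix and oxidises NADH, had a median of 0.31 with 2 of 9 called. Those of the proximal membrane arm had 0.26 with 2 of 9 called, and those of the distal membrane arm, at the far proton channels, 0.26 with 1 of 11. The difference between core and supernumerary subunits was not tested, and 24 of 30 against 4 of 7 had a positive log2 change. Of all genes tested 12.6% were higher, and the calls per class are not read as a difference between the classes.

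**Figure D3:**
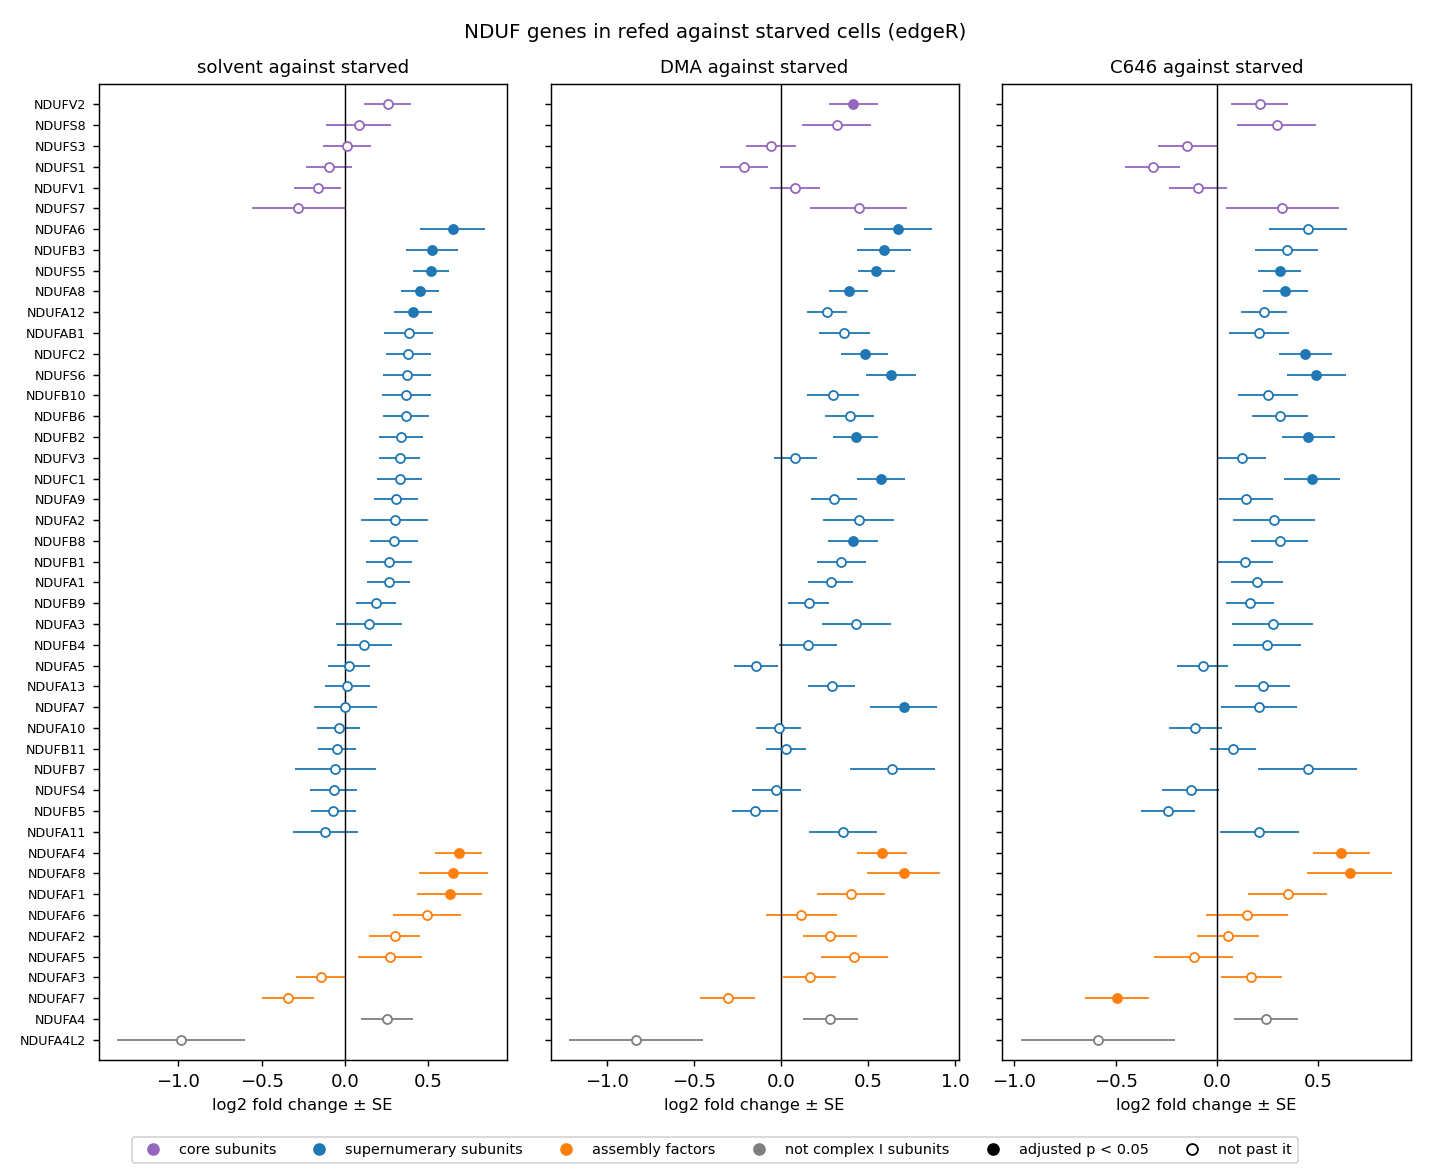
Log2 fold change ± SE (edgeR, 12 libraries in 1 fit) of 46 of the 47 tested NDUF genes in solvent, DMA and C646 libraries against the starved ones, coloured by class and filled where the adjusted p is under 0.05. Filled points number 8, 13 and 9 in the 3 panels, and NDUFAF7 with C646 is the 1 that lies below 0.

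NDUFAF4 is an assembly factor that acts on an early membrane-free intermediate of the enzyme. Its gene (ENSG00000123545.5) is on the minus strand of chromosome 6 at 96889313 to 96897881 (GENCODE 29, GRCh38). It had 14.7, 13.4 and 18.3 CPM (expected counts scaled to a common library size, here with TMM factors) in starved libraries 1, 2 and 3 and 26.4, 23.0 and 24.7 CPM in the solvent libraries, without overlap. The log2 fold change was 0.68 ± 0.14 (SE, n = 3 against 3, edgeR adjusted p = 0.0040), or 1.61-fold. It stayed past the threshold whichever of the 6 libraries was left out, with a highest adjusted p of 0.026. Summed over coding transcripts only, its adjusted p was 0.064, past the threshold no longer.

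NDUFS5, a small subunit at the intermembrane-space side of the proximal membrane arm (ENSG00000168653.10, chromosome 1, 39026318 to 39034636, plus strand), had 56.7, 61.2 and 73.1 CPM in the starved libraries. With solvent it had 90.5, 94.9 and 87.6 CPM, so every solvent library lay above every starved one. The change was 1.43-fold, with a log2 value of 0.52 ± 0.11 (edgeR adjusted p = 0.0039, at most 0.021 without any 1 library).

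NDUFA8, a twin-cysteine subunit of the same region (ENSG00000119421.6, chromosome 9, 122144058 to 122159819, minus strand), rose from 31.3, 38.4 and 37.9 CPM to 47.9, 51.6 and 47.6 CPM. Again no libraries overlapped, and the log2 change was 0.45 ± 0.11 (edgeR adjusted p = 0.011, at most 0.050 without any 1 library, still under the threshold).

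NDUFAF8 (ENSG00000224877.3, chromosome 17, 81239239 to 81241281, plus strand) had 17.8, 15.3 and 15.9 CPM in the starved and 21.1, 30.8 and 25.2 CPM in the solvent libraries. Its libraries did not overlap but solvent library 1 was closer to the starved ones than to solvent library 2. The log2 change was 0.65 ± 0.21 (edgeR adjusted p = 0.036), and the call was lost without any 1 of solvent libraries 2 and 3 or starved libraries 1, 2 and 3, with an adjusted p of up to 0.14. NDUFAF1, a chaperone for assembly of the proximal membrane arm, had 10.7, 7.41 and 10.2 CPM in the starved and 15.6, 13.7 and 14.4 CPM in the solvent libraries (log2 change 0.63 ± 0.19, edgeR adjusted p = 0.031). That call ended without starved library 2 or any 1 solvent library, at up to 0.14.

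NDUFA12, a subunit of the matrix arm, had 41.6, 41.4 and 49.1 CPM in the starved libraries and 57.3, 62.8 and 55.4 CPM with solvent, without overlap (log2 change 0.41 ± 0.11, edgeR adjusted p = 0.019). NDUFB3 of the distal membrane arm had 28.4, 26.7 and 38.4 CPM against 41.4, 53.9 and 38.8 CPM, where the highest starved and the lowest solvent library nearly met (0.52 ± 0.16, edgeR adjusted p = 0.027). Both calls were lost without solvent library 2, starved library 1 or starved library 2, at up to 0.082 for NDUFA12 and 0.12 for NDUFB3.

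NDUFA6, a matrix-arm subunit of the LYR family, had 21.7, 24.8 and 19.7 CPM in the starved libraries against 23.2, 42.0 and 38.8 CPM with solvent. Solvent library 1 lay within the starved range and the other solvent libraries lay well above it. Its log2 change of 0.65 ± 0.19 (edgeR adjusted p = 0.027) lost its call without solvent library 2 or 3 or starved library 1 or 3, at up to 0.11. Over all members, the count of 8 fell to 3 without solvent library 2, to 4 without starved library 1 or 2 and to 5 without solvent library 3, and rose to 16 without starved library 3.

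The log2 change was positive in 4 of the 7 core subunits. NDUFV1, which binds the flavin and NADH, had 83.9, 81.4 and 70.7 CPM in the starved and 56.2, 73.5 and 81.2 CPM in the solvent libraries, with overlapping groups (log2 change -0.16 ± 0.14, edgeR adjusted p = 0.44, and 0.48 with spike-in scaling, where the all-gene median was 0.60).

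Against the starved group the DMA group had the most calls. By edgeR 13 of 47 NDUF genes rose with DMA and none fell, 27.7% of the members, where 26.9% of all genes passed in either direction and 13.9% were higher and 13.0% lower. With C646, 8 rose and 1 fell, 19.1% of the members, against 24.6% of all genes in either direction, 12.9% higher and 11.7% lower. In either direction, the share of members lay near that of all genes with DMA and below it with C646. Counting rises alone, 27.7% of members and 13.9% of all genes were higher with DMA, and 17% and 12.9% with C646. These differences were not tested. Median log2 changes were 0.35 over the subunits and 0.34 over the assembly factors with DMA, and 0.23 and 0.16 with C646, beside all-gene medians of 0.003 and 0.011. With DMA, libraries did not overlap with the starved ones for 23 higher members (48.9%, against 21.1% of all genes) and 1 lower (2.13%, against 20.5%). With C646 they did not for 14 higher (29.8%, against 20.6%) and 2 lower (4.26%, against 19.9%). These 3 comparisons share the starved libraries and are not independent of each other.

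The genes that passed in all 3 comparisons with starved cells were NDUFS5, NDUFA8, NDUFAF4 and NDUFAF8. Another 6 passed in 2 of them, namely NDUFA6, NDUFB2, NDUFB3, NDUFC1, NDUFC2 and NDUFS6, and 6 in 1. The other 31 tested members passed in none. The 10 supernumerary subunits called with DMA had 1 core subunit beside them, NDUFV2, which holds an iron-sulfur cluster at the NADH end. Of all genes tested 13.9% were higher with DMA, and the classes were not tested against each other. Over the 7 core subunits the median log2 change was 0.08 with DMA and -0.09 with C646, against 0.36 and 0.24 over the 30 supernumerary ones.

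NDUFAF4 had 23.2, 21.3 and 24.4 CPM with DMA and 24.2, 22.3 and 24.2 CPM with C646. Both groups lay above the starved range of 13.4 to 18.3 CPM, with log2 changes of 0.58 ± 0.14 (edgeR adjusted p = 0.0094) and 0.62 ± 0.14 (edgeR adjusted p = 0.0075). No 1 library ended either call, with highest adjusted p of 0.049 and 0.042, but both ended with coding transcripts only (0.057 and 0.15). NDUFS5 had 95.0, 89.1 and 94.6 CPM with DMA and 82.2, 77.8 and 76.6 CPM with C646. The DMA call (0.55 ± 0.11, edgeR adjusted p = 0.0025) held without any 1 library, at up to 0.014. The C646 call (0.31 ± 0.11, edgeR adjusted p = 0.049) was lost without any 1 of the 3 C646 libraries or starved libraries 1 and 2, at up to 0.18.

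NDUFA8 had 44.9, 46.1 and 49.7 CPM with DMA (log2 change 0.39 ± 0.11, edgeR adjusted p = 0.021) and 45.2, 45.7 and 45.0 CPM with C646 (0.34 ± 0.11, edgeR adjusted p = 0.042), above the starved libraries in both cases. Without DMA library 3 or starved library 1 the first call was lost, at up to 0.092, and the second was lost without any 1 of its 6 libraries, at up to 0.17. NDUFAF8 had 33.3, 21.2 and 25.3 CPM with DMA (0.70 ± 0.21, edgeR adjusted p = 0.024) and 32.4, 24.4 and 20.4 CPM with C646 (0.66 ± 0.21, edgeR adjusted p = 0.035). Library 1 was highest in both groups. The DMA call ended without DMA library 1 or starved library 2 or 3, at up to 0.12, and the C646 call without C646 library 1 or 2 or any 1 starved library, at up to 0.17.

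**Figure D4:**
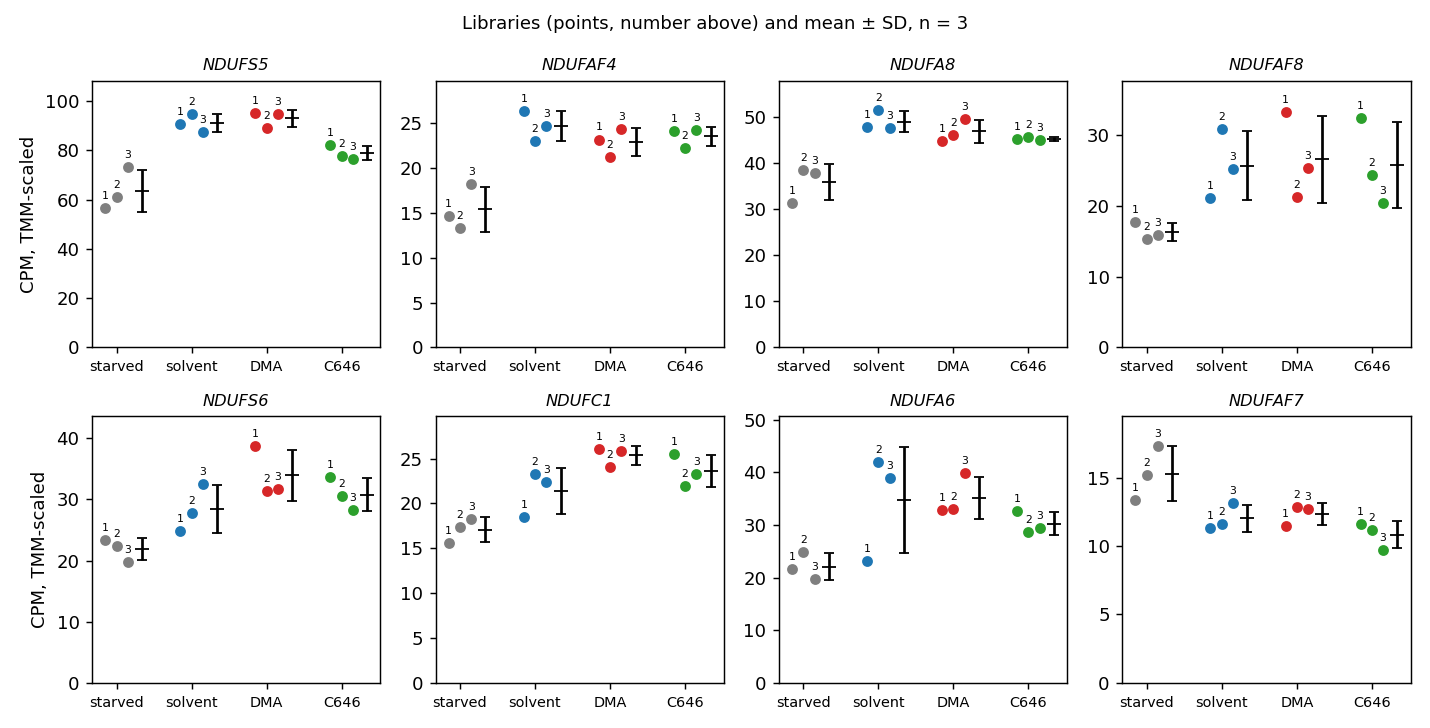
TMM-scaled CPM of 8 NDUF genes in every library (points, with the library number) and the mean ± SD of 3 libraries. NDUFAF4 runs from 13.4 to 18.3 CPM in starved libraries and from 21.3 to 26.4 CPM in the others, NDUFA6 has 1 solvent library at 23.2 CPM within the starved range, and NDUFAF7 is highest in the starved libraries.

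NDUFS6, a zinc-binding subunit of the matrix arm, had 23.3, 22.4 and 19.8 CPM in the starved libraries and 24.9, 27.7 and 32.6 CPM with solvent. It reached 38.7, 31.4 and 31.8 CPM with DMA and 33.6, 30.5 and 28.2 CPM with C646. No refed library overlapped the starved ones, and the DMA change was 0.63 ± 0.14 (edgeR adjusted p = 0.0061, at most 0.031 without any 1 library). With C646 it was 0.49 ± 0.14 (edgeR adjusted p = 0.025, lost without C646 library 1 or 2 or starved library 2 or 3, at up to 0.096), and with solvent 0.38 ± 0.14 (edgeR adjusted p = 0.074).

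NDUFC1, a membrane-arm subunit, had 15.5, 17.4 and 18.3 CPM in the starved libraries, 18.4, 23.3 and 22.4 CPM with solvent, 26.1, 24.1 and 25.9 CPM with DMA and 25.5, 22.0 and 23.3 CPM with C646. The DMA libraries were all above 24 CPM, and the change against starved cells was 0.57 ± 0.14 (edgeR adjusted p = 0.0078, at most 0.038 without any 1 library). NDUFC2, its partner in the membrane arm, had 52.1, 46.4 and 57.5 CPM in the starved libraries, 73.8, 64.2 and 79.1 CPM with DMA and 77.5, 66.7 and 67.0 CPM with C646 (0.48 ± 0.13 and 0.44 ± 0.13, edgeR adjusted p = 0.017 and 0.029). NDUFC2 shares 20.7% of its 31-base words with other genes, most with its readthrough, so its counts are uncertain. Its DMA call was lost without DMA library 1 or 3 or starved library 2, at up to 0.077. The C646 call was lost without C646 library 1 or starved library 1 or 2, at up to 0.12.

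NDUFA7, a matrix-arm subunit, had the lowest adjusted p of all members between a compound and solvent. It had 21.8, 25.3 and 19.6 CPM in the starved libraries, 20.2, 18.3 and 28.5 CPM with solvent, 44.0, 28.9 and 35.9 CPM with DMA and 25.1, 24.9 and 27.2 CPM with C646. All 3 DMA libraries lay above all 9 others. The change of DMA against starved cells was 0.70 ± 0.19 (edgeR adjusted p = 0.015, lost without DMA library 1 or starved library 3, at up to 0.072). NDUFA7 shares 43.5% of its 31-base words with other genes, most with an overlapping gene on the same strand, so reads could be split between them. Summed over coding transcripts only, its adjusted p was 0.11.

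NDUFB2 had 37.2, 35.1 and 40.3 CPM in the starved libraries, 54.5, 48.2 and 48.6 CPM with DMA and 60.2, 47.7 and 45.9 CPM with C646, with no overlap (0.43 ± 0.13 and 0.45 ± 0.13, edgeR adjusted p = 0.028 and 0.023). Its DMA call was lost without DMA library 1 or 3 or starved library 1 or 2, at up to 0.10. The C646 call was lost without C646 library 1 or starved library 1 or 2, at up to 0.12. Other genes overlap 35.9% of the exon bases of NDUFB2, so its counts are uncertain. For NDUFB3 the DMA libraries had 49.5, 45.9 and 45.2 CPM (0.59 ± 0.16, edgeR adjusted p = 0.013), and for NDUFA6 they had 32.8, 33.0 and 39.8 CPM (0.67 ± 0.19, edgeR adjusted p = 0.021). The first call was lost without starved library 1 or 2, at up to 0.065. The second was lost without DMA library 3 or starved library 1 or 3, at up to 0.087. NDUFV2 (0.41 ± 0.14, edgeR adjusted p = 0.043) and NDUFB8 (0.41 ± 0.14, edgeR adjusted p = 0.047) passed in the DMA comparison but not in the other comparisons with starved cells, a difference that was not tested. NDUFV2 had 63.6, 64.6 and 86.7 CPM in the starved and 88.4, 88.8 and 109 CPM in the DMA libraries, without overlap, and NDUFB8 had 60.9, 66.2 and 87.5 against 103, 81.3 and 101 CPM, with overlap. They share 30.1% and 35.4% of their 31-base words with other genes. The NDUFV2 call was lost without any 1 DMA library or starved library 1 or 2, at up to 0.19. That of NDUFB8 was lost without DMA library 1 or 3 or starved library 1 or 2, at up to 0.18.

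The 1 lower call was NDUFAF7, the methyltransferase, which had 13.3, 15.2 and 17.3 CPM in the starved libraries and 11.6, 11.2 and 9.74 CPM with C646, without overlap (log2 change -0.49 ± 0.16, edgeR adjusted p = 0.036). The call was lost without any 1 C646 library or starved library 2 or 3, at up to 0.11, and its log2 value became 0.19 with spike-in scaling, where the all-gene median was 0.73. With solvent (11.3, 11.6 and 13.2 CPM) and DMA (11.5, 12.8 and 12.7 CPM) every library was also below the starved ones, with log2 changes of -0.34 ± 0.16 and -0.31 ± 0.16, neither past the threshold, and both were positive with spike-in scaling (0.23 and 0.49, against all-gene medians of 0.60 and 0.81). NDUFS1, the core subunit with more iron-sulfur clusters than any other, had 97.3, 106 and 102 CPM in the starved and 81.5, 85.9 and 78.0 CPM in the C646 libraries (-0.32 ± 0.14, edgeR adjusted p = 0.11, or 0.038 with the library number as a block), and 0.39 with spike-in scaling.

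NDUFA4L2, the low relative of NDUFA4, had the largest negative log2 values against starved cells, without a call. It had 3.79, 3.6 and 1.35 CPM in the starved, 1.16, 2.04 and 1.27 CPM in the solvent, 1.56, 1.88 and 1.52 CPM in the DMA and 1.86, 2.46 and 1.55 CPM in the C646 libraries. Starved library 3 lay among the refed ones, so the groups overlapped. The log2 change was -0.98 ± 0.39 with solvent, -0.83 ± 0.39 with DMA and -0.59 ± 0.38 with C646 (edgeR adjusted p = 0.080, 0.13 and 0.29), and with the library number as a block the first had an adjusted p of 0.028.

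Leaving out single libraries moved these counts, as it did that with solvent. The shares of all genes in those fits are not given here, so the shifts are not read as particular to the NDUF genes. The 13 calls with DMA became 7 without starved library 1, starved library 2, DMA library 1 or DMA library 3. The 9 with C646 became 1 without starved library 2 or C646 library 1, 3 without starved library 1 and 4 without C646 library 2. Of the calls, 3 of 8, 4 of 13 and 1 of 9 in the solvent, DMA and C646 comparisons held whichever library was left out. DESeq2 called 12, 15 and 9 NDUF genes, where 28.5%, 31.1% and 28.7% of all genes passed. With the library number as a block 18 passed with solvent, 17 with DMA and 11 with C646, where 35.7%, 38.7% and 36.2% of all genes did.

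Scaling to the spike-in counts, which made up 0.527% to 1.28% of a library and 0.872% to 1.28% in the starved ones, shifted every gene. The all-gene median became 0.60 for solvent, 0.81 for DMA and 0.73 for C646 against starved cells, the subunit medians 0.85, 1.15 and 0.93 and the core medians 0.58, 0.89 and 0.64. Relative to those all-gene medians, the subunits remained higher by an amount close to that in the TMM scale. The counts of higher members became 22, 39 and 33 of 47, with none lower, where 22.4%, 43.1% and 34.2% of all genes passed. How the spike-in RNA was added is not given in the sources used here.

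Neither compound gave a call against the solvent group. DMA against solvent had 0 of 47 NDUF genes past the threshold by edgeR (1.75% of all genes, 0.734% higher and 1.02% lower), with 4 at an unadjusted p under 0.05, and DESeq2 called 1 (7.18% of all genes). C646 against solvent had 0 by edgeR (1.21% of all genes, 0.812% higher and 0.4% lower), 0 at an unadjusted p under 0.05 and 0 by DESeq2 (5.84% of all genes). DMA against C646 had 0 by edgeR (2.89% of all genes, 0.943% higher and 1.95% lower), with 3 at an unadjusted p under 0.05 and 0 by DESeq2 (6.91% of all genes). With the block the counts were 1, 0 and 0, where 10.2%, 7.86% and 9.81% of all genes passed. With spike-in scaling they were 0, 0 and 0, where 0.596%, 0.655% and 0.786% did. Median log2 changes of subunits and assembly factors were 0.04 and 0.01 for DMA against solvent, -0.06 and -0.20 for C646 against solvent and 0.10 and 0.05 for DMA against C646.

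The precision sets what these counts can show. The 95% half-width of a member's log2 change had a median of 0.31 in each comparison and a range from 0.22 to 0.84 for DMA against solvent, with the test's own degrees of freedom. The whole interval lay within 1.5-fold for 37 of 47 members for DMA against solvent, for 36 for C646 against solvent and for 40 for DMA against C646. For the remaining members a change past 1.5-fold was not excluded by the interval.

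For DMA against solvent the lowest adjusted p belonged to NDUFA7, at 1.62-fold (log2 change 0.70 ± 0.19, edgeR adjusted p = 0.074). With the library number as a block it was 0.028, and with DESeq2 0.012. Next came NDUFB7, a subunit of the distal membrane arm, with 13.5, 22.8 and 31.5 CPM in the solvent and 36.6, 33.3 and 39.7 CPM in the DMA libraries (0.70 ± 0.24, edgeR adjusted p = 0.14). For NDUFS7 the solvent libraries had 6.15, 10.6 and 13.3 CPM and the DMA libraries 18.1, 14.7 and 16.6 CPM (0.72 ± 0.28, edgeR adjusted p = 0.18). Solvent library 1 was the lowest in both genes. Genes on the opposite strand overlap 49.1% of the exon bases of NDUFS7, so its counts are uncertain.

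In the comparison of C646 with solvent, NDUFS7 had the lowest adjusted p of the subunits (0.60 ± 0.28, edgeR adjusted p = 0.30), with C646 libraries at 15.3, 18.7 and 11.4 CPM that overlapped the solvent ones. Coding transcripts took a median of 5.12% of the level of this core subunit. Summed over coding transcripts only, the highest log2 change of any core subunit was 0.19 for C646 and 0.70 for DMA against solvent. NDUFAF3 had the lowest of the assembly factors in both compound comparisons (0.30 ± 0.15 with DMA and 0.31 ± 0.15 with C646, edgeR adjusted p = 0.288 and 0.315), and its solvent libraries had 27.0, 41.7 and 37.7 CPM. A set of 7 members was lower in every C646 library than in every solvent library, a share of 14.9%, where 11.6% of all genes were. Among those 7 were NDUFAF5, NDUFAF6, NDUFA8, NDUFA12, NDUFS5 and NDUFV3. For DMA against solvent, 4 members were higher and 2 lower without overlap, where 11.3% and 11.9% of all genes were.

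NDUFAF5, which hydroxylates an arginine of NDUFS7, had the lowest adjusted p between the compounds. It had 14.6, 14.6 and 13.2 CPM with DMA and 10.6, 10.0 and 8.59 CPM with C646, without overlap (0.53 ± 0.19, edgeR adjusted p = 0.16). DMA libraries lay above C646 libraries without overlap for 8 members, 17.0% of them, where 10.5% of all genes did so, and C646 libraries lay above for none, where 11.1% did. Those 8 were NDUFA1, NDUFA6, NDUFA7, NDUFAB1, NDUFAF5, NDUFB1, NDUFB3 and NDUFS5.

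The change against solvent went with the GC content of a member's transcripts. For DMA against solvent the log2 change had a Spearman correlation of 0.60 (Pearson 0.63) with GC content over the 47 members, and for C646 against solvent it had 0.68 (Pearson 0.72). Over 15236 genes with a value the Spearman correlations were 0.31 and 0.26. Both comparisons share the solvent libraries, members share libraries, and these values were computed after the changes of the members had been seen. Against starved cells the correlation was -0.34 with solvent, 0.16 with DMA and 0.13 with C646.

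**Figure D5:**
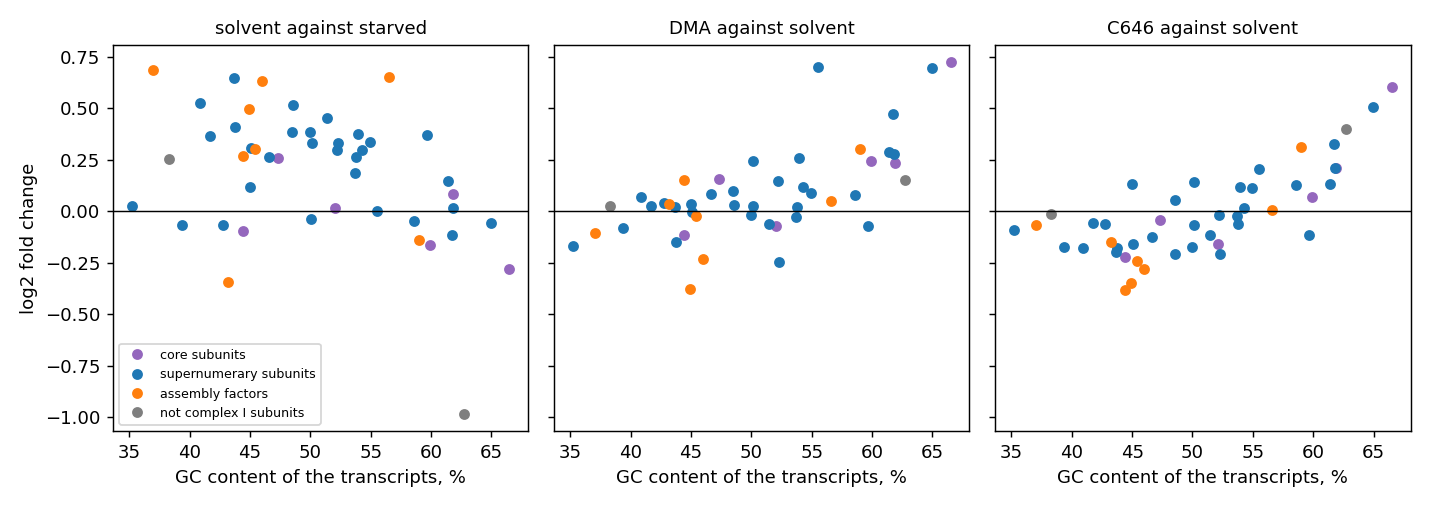
Log2 fold change of 46 of the 47 tested NDUF genes (vertical) against the GC content of their transcripts in percent (horizontal), for solvent against starved, DMA against solvent and C646 against solvent, coloured by class. Points rise from left to right in the panels of DMA and C646 against solvent, with Spearman correlations over all 47 of 0.60 and 0.68, and fall in the panel of solvent against starved, with -0.34.

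The relation varied from library to library. Each library's deviation from the mean of all 12 libraries had a Spearman correlation with the members' GC content of -0.61 in solvent library 1, -0.47 in solvent library 2 and 0.08 in solvent library 3. It was 0.32, 0.27 and -0.51 in the starved libraries, 0.41, -0.07 and 0.26 with DMA and 0.37, 0.70 and -0.29 with C646. Every group held libraries of both signs, and the part of this in the group differences was not tested. With libraries of the same number set against each other, the median log2 ratio of the subunits was 0.20, -0.10 and 0.10 for DMA against solvent and 0.17, -0.15 and -0.07 for C646 against solvent. The sign therefore differed between numbers in both comparisons.

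Split at the members' median GC content of 50.1%, the 24 members at or below it had a median log2 change of 0.30 with solvent against starved and held 6 of the 8 calls, and the 23 above had 0.08 and 2 calls. Genes of the same range had all-gene medians of 0.05 and -0.05. With DMA against starved cells the same split gave 0.32 and 0.32 with 7 and 6 calls. Transcript length went with the change too: the Spearman correlation was -0.57 for DMA and -0.50 for C646 against starved cells over the 47 members, where all genes gave -0.09 and -0.02. The 24 members of up to 732 bases held 10 of the 13 DMA calls, with a median of 0.39 against 0.16 for the longer ones. Genes of the shorter range had an all-gene median of 0.19. Core subunits had a median length of 919 bases and supernumerary subunits one of 701 bases, and the part of length in the difference between these classes was not tested.

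Some counts rest on transcripts that GENCODE does not class as coding. Of NDUFAF4, the coding transcript took a median of 8.25% of the gene's level over the libraries and a processed transcript, NDUFAF4-202, took 55.4% to 74.8%. For NDUFC1 the coding share had a median of 14.0%, for NDUFS7 5.12%, for NDUFA4 17.7%, for NDUFAF6 26.0% and for NDUFAF5 28.6%. NDUFA8 was counted wholly on its coding transcript, and NDUFS5 on 2 coding ones. Summed over coding transcripts only, the log2 change of NDUFAF4 was 0.60 with solvent, 0.61 with DMA and 0.46 with C646 against starved cells (edgeR adjusted p = 0.064, 0.057 and 0.15), none past the threshold. NDUFS5 gave 0.50, 0.54 and 0.30 (edgeR adjusted p = 0.0055, 0.0032 and 0.065). Of the 30 calls against starved cells, 22 stayed past the threshold with coding transcripts only.

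Promoter sequences are shown for the genes whose rise was called in every comparison with starved cells. The RefSeq promoter table (GRCh38.p14) held 40 of the 48 members. NDUFA4, NDUFA4L2, NDUFAF6, NDUFB5, NDUFB9, NDUFC2 and NDUFS5 were among those not matched. Printed are the stretches before the start that hold no annotated exon, for 3 of the 4 genes that passed in all 3 comparisons with starved cells, 5′ to 3′ on the gene's strand. Capitals mark matches on either strand to 7 motifs: the NRF1 palindrome, CCGGAAG (ETS), AAGATGGC (YY1), CACGTG (E-box), TGACGTCA (CRE), CCAAT (NF-Y) and GGGCGG (SP1). The first lies at chr6:96897892-96898141 (minus strand), the second at chr9:122159820-122159907 (minus strand) and the third at chr17:81239092-81239238 (plus strand).
NDUFAF4: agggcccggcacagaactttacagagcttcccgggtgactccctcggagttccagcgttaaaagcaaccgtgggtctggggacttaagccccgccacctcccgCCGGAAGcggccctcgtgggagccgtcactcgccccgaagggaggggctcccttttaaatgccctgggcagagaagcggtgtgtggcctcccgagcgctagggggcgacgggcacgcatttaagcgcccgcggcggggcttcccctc
NDUFA8: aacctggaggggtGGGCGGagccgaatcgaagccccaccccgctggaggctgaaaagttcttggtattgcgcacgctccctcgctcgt
NDUFAF8: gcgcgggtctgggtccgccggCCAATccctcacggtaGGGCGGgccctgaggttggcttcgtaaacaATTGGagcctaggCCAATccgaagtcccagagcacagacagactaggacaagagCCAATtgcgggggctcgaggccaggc

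NDUFAF4 held 1 ETS match, NDUFA8 1 SP1 match, and NDUFAF8 1 SP1 and 4 NF-Y matches in these stretches. In windows of 300 bases, from 250 before to 50 after the start nearest the principal transcript, the YY1 letters were in 8 of 40 members, where 3.70% of all 17391 promoters and 5.37% of those of tested genes held them. All 8 matches lay after the start, from base 11 to base 26, in NDUFA3, NDUFA6, NDUFA7, NDUFA9, NDUFAF8, NDUFB8, NDUFS4 and NDUFS7. SP1 letters were in 26 of 40 members (65%) against 69.4% of tested genes, NRF1 letters in 7 of 40 (17.5%) against 11.7%, and ETS letters in 7 of 40 (17.5%) against 18.7%. Outside its printed stretch, the window of NDUFA8 held NRF1 letters from bases -4 and 3. That of NDUFAF8 held ETS letters from base -2, SP1 from -36, YY1 from 17 and NF-Y from -228 and -63.

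The choice of window was settled after the counts had been seen and moves them. With the first start listed for each gene the YY1 letters were in 6 of 40 members (against 5.31% of tested genes), and with every listed start in 9 of 52 windows (17.3%, against 4.61%). Among the 13 members called higher and present in the table they were in 4 with the windows used and in 2 with the first start listed, beside 4 of the 27 others in both. A match is a description of the letters and says nothing about binding.

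The rest of the respiratory chain gives the setting for these changes. With solvent against starved cells, complex V had 4 of 18 genes higher and 0 lower (median log2 change 0.25), among them the ring subunits ATP5MC1 (0.68) and ATP5MC3 (0.61). Complex IV had 8 of 27 higher and 1 lower (median 0.19), with the copper chaperone SCO1 (0.64) and COX11 (0.60) highest and COX19 lower (-0.49, or 0.12 with spike-in scaling). Complex III had 1 of 15 higher (UQCR10, 0.50) and complex II 1 of 7 (SDHAF2, 1.07). Complex I subunits, with 5 of 37, were within the range of these shares, and the complexes were not tested against each other. Of all genes tested, 12.6% were higher and 11.7% lower with solvent against starved cells.

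Of 11 further complex I assembly factors without the NDUF symbol, 1 rose with solvent against starved cells (TMEM70, 0.82, edgeR adjusted p = 0.0019) and 1 fell (ECSIT, -0.84, edgeR adjusted p = 0.0052). Among the regulators of respiratory genes TFAM, which packages mitochondrial DNA, rose (0.37) and SP1 fell (-0.77). NRF1 had -0.07 and YY1 0.006, neither past the threshold. PPARGC1A had at most 0.18 CPM in any library and was not tested.

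The mitochondrially encoded core subunits are given beside the nuclear genes, without a test between the groups of genes. With DMA against starved cells, 4 of 7 were lower and 0 higher, where 13.0% of all genes were lower and 13.9% higher. Their median log2 change was -0.42, beside 0.08 over the 7 nuclear core subunits. MT-ND4, a proton-channel subunit, had 3750, 4621 and 7588 CPM in the starved and 2062, 2875 and 3059 CPM in the DMA libraries, without overlap (-0.997 ± 0.23, edgeR adjusted p = 0.0075). MT-ND4L (-0.82 ± 0.21, edgeR adjusted p = 0.013), MT-ND5 and MT-ND3 also fell. MT-ND4 shares 21.2% of its 31-base words with other genes, so its counts are uncertain, as are those of MT-ND1, MT-ND2 and MT-ND6. With spike-in scaling none of the 7 was lower and 1 was higher, with MT-ND4 at -0.20, MT-ND3 at 0.39 and a median of 0.39, where the all-gene median was 0.81. MT-ND3 had 637, 744 and 622 CPM with solvent, 371, 417 and 470 CPM with DMA and 387, 466 and 407 CPM with C646, and was lower with either compound than with solvent (-0.67 ± 0.14 in both, edgeR adjusted p = 0.035 and 0.040). Without single libraries these adjusted p reached 0.14 and 0.16. With spike-in scaling 0 of the 7 passed against solvent with either compound, with a lowest edgeR adjusted p of 0.668 for DMA and 0.9996 for C646. With solvent against starved cells 0 of 7 passed (edgeR, 0 at an unadjusted p under 0.05), with a median of 0.06, as 0 of 7 nuclear core subunits did, with 0.01. The library share of mitochondrial counts ran from 2.43% to 4.18% in starved and from 1.69% to 2.39% in DMA libraries, and the libraries were made from polyA RNA.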

How the data were processed

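Per the labels, polyA RNA was sequenced with a stranded kit in 12 libraries, and the submitters' processing notes name Trimmomatic 0.36, STAR 2.7.0e and GRCh38.p10. Which program, gene models and strandedness were used for quantification is not given in the sources used here. Deposited tables give expected counts per transcript, which are fractional and differ in total between libraries, and TPM, both per the file headers. Expected counts were summed over the GENCODE 29 transcripts of each gene and rounded. Of 182164 transcripts, 92 were spike-in controls and 264 others matched no GENCODE 29 transcript (0.0923% to 0.146% of a library's counts). Both stayed out of the tests.

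Genes passed filterByExpr (minimum count 10, minimum total 15), which left 15263. They were TMM-scaled and tested with edgeR 4.0.16 (robust quasi-likelihood, 12 libraries in 1 fit, no block), with Benjamini-Hochberg adjustment over all genes and a threshold of 0.05. DESeq2 1.42.0, other scalings and filters, coding transcripts only, a block for the library number and leaving out each library were alternatives. A count of 3 corresponds to 0.105 to 0.203 CPM, for counting error only. The script was tested on simulated counts, where folds were recovered in size, changed genes of every simulated fold size were missed in part, most of the small ones, and the share of false calls exceeded the nominal one.

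Members with over 20% of their 31-base words or exon bases shared with other genes were called uncertain (14 of 48). Values per library were given for the called members with the lowest adjusted p or the largest change and for the leading member of each class in each comparison. NDUFAF7, NDUFAF1, NDUFS1, NDUFV1, NDUFV2, NDUFA4L2, NDUFB8 and NDUFB7 were added after their values were seen. The values of 1 member are not reported here, though it stays in the counts, sums and medians. The members and lists were chosen with earlier results of these data known. Library numbers shared deviations (correlations of 0.13 to 0.48 for every pair) in all comparisons but that of solvent with starved cells. There the correlations were 0.096, 0.33 and 0.18, and only that of number 1 fell short of the 0.1 asked for. Each was still higher than with any other number, so some sharing is present there too, which the fit without a block leaves out.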

Additional observations from a re-analysis of the deposited data

How the results depend on the processing

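All 30 calls against starved cells kept their direction under the alternatives run, except NDUFAF7 with C646, which was 0.19 with spike-in scaling, a scaling that moved the all-gene median there to 0.73. All 30 stayed past the threshold with DESeq2, with a stricter filter and with the replicate block. DESeq2 size factors ended 1, no filter 6, a fit of the compared groups alone 8 and coding transcripts only 8. With the replicate block, 18 NDUF genes passed for solvent against starved (8 without it), 17 higher and NDUFA4L2 lower, 17 when solvent replicate 1 was also left out, and the numbers did not meet the criterion for pairing in that comparison (correlations of 0.096, 0.33 and 0.18). Each library there correlated best with its own number. The block gave 1 for DMA against solvent, and with solvent replicate 1 left out 22 for DMA against starved. It ended no call. DESeq2 and no filter also gave 1 for DMA against solvent, and for C646 against starved no filter and coding transcripts only gave 5 each. With the block alone 35.7% of all genes passed for solvent and 38.7% for DMA against starved. Not given here are the shares of all genes with solvent replicate 1 left out, without a filter or with coding transcripts only. Those counts are therefore not read as particular to the NDUF genes. Spike-in scaling gave 22, 39 and 33 NDUF genes for solvent, DMA and C646 against starved. Its medians were 0.85, 1.15 and 0.93 for subunits and 0.97, 1.14 and 0.86 for assembly factors. Against solvent they were 0.24 and 0.20 with DMA and -0.083 for assembly factors with C646, and 0.19 for subunits with DMA against C646.

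Leaving out 1 library gave 3 to 16 NDUF genes for solvent against starved, 7 to 18 for DMA against starved, 1 to 10 for C646 against starved and 0 to 2 for DMA against solvent, with 0 in the remaining 2 comparisons. Subunit medians ran from 0.15 to 0.32, 0.29 to 0.42 and 0.18 to 0.26 against starved. Assembly-factor medians ran from 0.32 to 0.56, 0.23 to 0.40 and 0.12 to 0.26 against starved, from -0.072 to 0.020 for DMA against solvent and from 0.031 to 0.23 for DMA against C646. The cause was not tested, beyond the fewer samples of these fits. Shares of all genes in these fits are not given here, so the counts are not read as particular to the NDUF genes. Promoter windows and the relations with GC content and length were added after the data were seen.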
